A study of Homo sapiens with 84 samples.

Results

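The S100 family comprises small calcium-binding proteins, and 10 of its genes were examined here: S100A2, S100A4, S100A6, S100A7, S100A8, S100A9, S100A10, S100A11, S100A14 and S100A16. They were taken by gene symbol from the 58395 gene identifiers of the count files, and all 10 passed the filter on low counts in every fit. Their levels were measured by 3′ RNA-seq in 43 libraries of Kyse30 cells, a line from an esophageal squamous cell carcinoma, and in 20 libraries of FaDu cells, a line from a squamous cell carcinoma of the hypopharynx. All cells were starved of serum for 24 h before treatment and kept without serum afterwards. Controls were untreated cells (Ctrl) after 0, 6 or 72 h, and cells given the Fc part of an immunoglobulin (Fc) for 6 or 72 h. Treated cells received EGF at 1.8 nM (EGFlow) or 9 nM (EGFhigh), the ectodomain of the adhesion molecule EpCAM fused to Fc at 50 nM (EpEX), or EGFhigh and EpEX together (EGFhigh+EpEX), each for 6 or 72 h. Kyse30 conditions had 3 or 4 libraries each. The 20 FaDu libraries were those numbered replicate 3 or 4, with 1 or 2 per condition. Each line is a single established cell line, the labels do not say whether replicates were separate cultures, and the p-values therefore measure only the spread between libraries, which may be technical. EGF was compared with Ctrl, and both treatments that contain EpEX with Fc, at the same time to ask how the genes respond early (6 h) and late (72 h).

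As background, S100 proteins mostly act as dimers that change shape when calcium binds and then hold on to other proteins. Inside the cell, S100A10 binds annexin A2 at membranes, S100A11 binds annexin A1, and S100A4 binds non-muscle myosin and is known from motile and mesenchymal cells. S100A8 and S100A9 together form calprotectin, which withholds zinc and manganese from microbes, and S100A7, or psoriasin, is an antimicrobial protein of inflamed skin. S100A2 is typical of basal squamous epithelium, where it is a known target of p63. S100A14 and S100A16 are found in epithelia and their roles are less settled, and S100A6 is abundant in dividing cells. Released S100 proteins can signal through the receptors RAGE and TLR4. Most genes of the family lie together in the epidermal differentiation complex of chromosome 1, beside the genes of the cornified envelope.

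All 10 members lie within 1634072 bp of chromosome 1 (GRCh38, 151982915 to 153616986), and 9 of them are on the minus strand, with S100A9 alone on the plus strand. Of the 10, S100A10 and S100A11 stand at one end, 38115 bp apart. S100A2 (chr1:153561108-153567890), S100A16 (chr1:153606886-153613145) and S100A14 (chr1:153614255-153616986) follow each other at the other end with no other S100 gene between them, and only 1109 bp separate S100A16 from S100A14. The exons of S100A6 overlap those of an antisense gene, and since the strand setting of the counting is not known, the reads of the pair cannot be told apart. S100A11 has 2 annotated pseudogenes and S100A7 has 1, and none of the 3 received a count in any library.

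Promoter windows of 300 bases (250 before to 50 after an annotated start) were available from RefSeq (GRCh38.p14) for all 10 members, in 14 windows. They were searched on both strands for 5 motifs that were chosen after the members' values had been seen, and no match of one motif overlapped a match of another. A TATA box (TATAAA) lay 25 to 35 bases before a start in 4 of the 14 windows, 1 each of S100A4, S100A7, S100A8 and S100A9, whereas 2.64% of the 35116 windows of all genes have it there. These 4 members also had the widest range over the Kyse30 conditions, and a link with the box was not tested. In Kyse30 the medians of S100A7 and S100A8 were 0.176 and 0.975 CPM, so their ranges start near 0. The windows of S100A6 and S100A14, with narrower ranges (1.24 and 1.3 on the log2 scale), hold TATAAG, which the search did not count. An AP-1 motif (TGANTCA), the kind bound by FOS and JUN proteins, stood in 1 of the 14 windows, that of S100A2, and in 7.71% of all windows. The stretches from 60 bases before to 20 bases after the start are shown for these 5 members, because they hold the matches, which are given in capitals. A match is a description of the letters and not evidence of binding.
S100A4 (chr1:153545787-153545866, minus strand, TATA box): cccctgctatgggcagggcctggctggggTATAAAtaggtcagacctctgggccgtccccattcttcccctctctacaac
S100A7 (chr1:153460632-153460711, minus strand, TATA box): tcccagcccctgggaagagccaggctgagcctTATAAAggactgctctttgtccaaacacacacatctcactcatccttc
S100A8 (chr1:153391054-153391133, minus strand, TATA box): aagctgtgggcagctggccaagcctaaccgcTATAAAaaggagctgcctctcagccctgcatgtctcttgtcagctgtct
S100A9 (chr1:153357794-153357873, plus strand, TATA box): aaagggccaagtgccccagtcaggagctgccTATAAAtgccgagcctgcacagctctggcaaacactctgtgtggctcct
S100A2 (chr1:153565825-153565904, minus strand, AP-1 motif): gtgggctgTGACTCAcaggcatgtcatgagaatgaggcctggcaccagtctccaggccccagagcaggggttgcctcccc
The TATA box began 29 bases before the start in S100A8 and S100A9, 28 in S100A7 and 31 in S100A4, and the AP-1 motif of S100A2 began 52 bases before the start. Of the other motifs, the GC box (GGGCGG) occurred in 5 of the 14 windows, 1 each of S100A6, S100A9, S100A10, S100A11 and S100A16, against 45% of all windows. The C/EBP motif (TTGCNNAA) occurred in 1 of the 14 windows, that of S100A11, against 10.5%. The TEAD motif (GGAATG) occurred in 2 of the 14, both of S100A16, against 14%. Anywhere in the window, the TATA box occurred in 5 of the 14 windows, all of the same 4 members, against 11.5% of all windows.

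Counts on genes ranged from 1944948 to 11759799 per library in Kyse30 and from 6217938 to 12442349 in these FaDu libraries, so that 3 counts, taken as the smallest readable amount, corresponded to between 0.241 and 1.54 CPM (counts scaled to a common library size, the usual unit for such libraries); such limits cover counting error only. The 10 members took between 0.297% and 1.09% of the counts on genes in Kyse30 and between 0.343% and 0.771% in FaDu. The 21 FaDu libraries numbered 1 or 2 stood apart: their profiles correlated with those numbered 3 or 4 with a median Spearman rho of 0.787, against 0.963 among the latter, and S100A2 alone ranged from 33.3 to 14500 CPM in them. They enter only as an alternative. Epithelial markers were present, with EPCAM between 113 and 312 CPM in Kyse30 and between 279 and 450 CPM in FaDu, but the basal keratins KRT5 and KRT14 were near 0 in Kyse30 (medians of 2.1 and 0.688 CPM). The 7 myeloid markers summed to at most 4.61 CPM in Kyse30 and 1.88 CPM in FaDu, and CSF3R and MPO, which define neutrophils and their precursors, were at 0 in all 43 Kyse30 libraries.

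In untreated cells at 6 h the 2 lines differed in 8 of the 10 members (22.4% of 19634 genes tested were called between the lines, 12% higher in Kyse30 and 10.4% lower; edgeR quasi-likelihood test, adjusted p of at most 0.05 and absolute log2FC over 0.5, the rule for a call throughout). Kyse30 was high in S100A6, S100A11 and S100A4, and FaDu in S100A2, S100A8 and S100A7. S100A6 reached 2640, 1550 and 2780 CPM in the 3 Kyse30 libraries and 207 and 160 CPM in the 2 FaDu libraries (log2FC 3.66 ± 0.44 (SE), adjusted p = 2.29e-09). S100A2 was at 122, 91.3 and 259 CPM in Kyse30 and at 2030 and 2080 CPM in FaDu (log2FC −3.71 ± 0.56, adjusted p = 6.07e-07). The lines did not overlap in either gene, as in 47% of all genes tested. In bulk RNA a smaller share of cells expressing a gene and less RNA per cell cannot be told apart, here and in every comparison.

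S100A11 (log2FC 1.56 ± 0.29), S100A4 (2.02 ± 0.49), S100A14 (1.14 ± 0.28) and S100A10 (0.64 ± 0.23) were also higher in Kyse30, with adjusted p between 3.25e-05 and 0.0384 in edgeR. S100A10 is the smallest of these differences, and the call was lost without Kyse30 Ctrl replicate 1 (log2FC 0.60) or 4 (0.63) and without FaDu Ctrl replicate 3 (0.66) or 4 (0.70). S100A16 (419 ± 31.1 CPM in Kyse30 and 334 ± 46.5 CPM in FaDu; mean ± SD, n = 3 and 2) and S100A9 (17.2 ± 4.48 and 37.9 ± 10.2 CPM) were not called. The calprotectin gene S100A8 was counted 6, 8 and 0 times in the 3 Kyse30 libraries and 589 and 449 times in the 2 FaDu libraries, a ratio of 94.1 (95% exact interval of the pooled counts 55.8 to 173). S100A7 was counted 0, 0 and 2 times in Kyse30 and 97 and 43 times in FaDu, a ratio of 88.8 (24.1 to 740). These intervals treat reads as independent molecules and cover counting error only, not the spread between libraries. Both were called, and S100A8 and S100A7 were thus near or under the floor in untreated Kyse30 cells. The line goes together with the series of libraries, which cannot be told apart. With all 41 FaDu libraries 4 members were called, S100A7, S100A8, S100A9 and S100A11. S100A2, S100A4, S100A6, S100A10 and S100A14 then lost their calls, with S100A4 at a log2FC of −2.91 (adjusted p = 0.207 in edgeR).

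Because 3′ RNA-seq gives 1 tag per transcript, members can be compared by CPM without regard to length. In untreated Kyse30 cells S100A6 ranked 53 of 19693 genes with counts, S100A11 ranked 109 and S100A10 ranked 130. S100A14 (472 ± 82.2 CPM) and S100A16 (419 ± 31.1 CPM) came next and overlapped between libraries, as did S100A11 and S100A10. In FaDu S100A2 ranked 48 of 18771 genes, and S100A10 (612 ± 3.83 CPM) came second with no overlap. S100A11 overlapped with S100A16 there, S100A14 with S100A6, and S100A7 with S100A4.

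**Figure D1:**
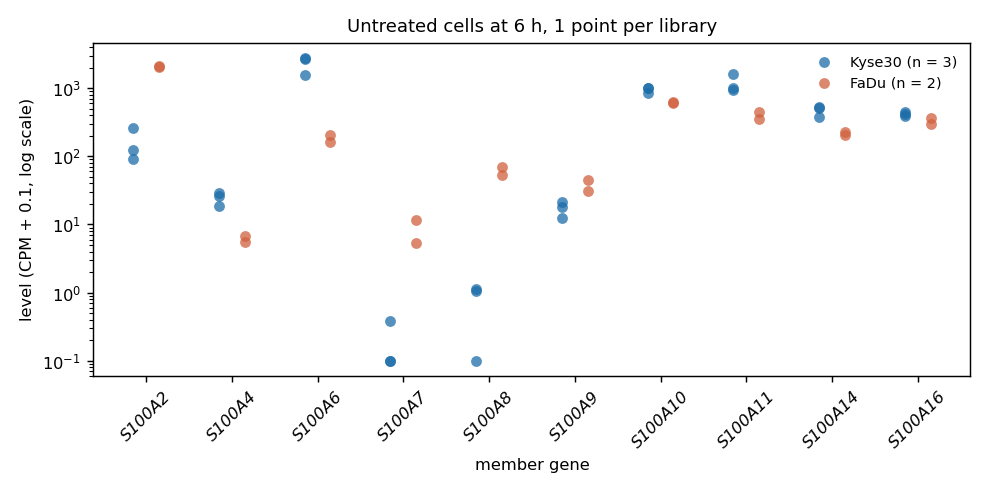
Level of each member in untreated cells at 6 h, in CPM plus 0.1 on a log scale, with 1 point per library for Kyse30 (blue, n = 3) and FaDu (orange, n = 2). S100A2, S100A7 and S100A8 lie higher in FaDu and S100A6 higher in Kyse30, whereas the lines are close for S100A16.

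After 72 h of EGFhigh, 4 of 10 members were higher than in Ctrl of the same time in Kyse30 cells: S100A16, S100A4, S100A11 and S100A9 (6.2% of 15350 genes were called, 3.04% upward). None was called lower. All 10 had a log2FC above 0, with a median of 1.10 against −0.03 over all genes tested. The share of all genes above 0 was not counted. All 10 were also above 0 with EGFlow at 72 h, where their median was 0.28 and no gene was called. On leaving out a single library S100A7 fell to −0.04 with EGFhigh. S100A16 was at 590, 523 and 544 CPM with EGFhigh and at 259, 239 and 210 CPM in Ctrl (log2FC 1.23 ± 0.18, adjusted p = 1.11e-05 in edgeR). At 6 h it had been at 596 ± 84.8 CPM with EGFhigh and at 421 ± 29.7 CPM in Ctrl (mean ± SD, n = 4 and 3). Its mean with EGFhigh was thus no higher at 72 h than at 6 h, whereas that of Ctrl was lower. Its 3 EGFhigh libraries lay above all 16 other Kyse30 libraries at 72 h, which ranged from 182 to 291 CPM. The share of all genes that separate over such pooled conditions was not counted, here or below. The call held under each of the 11 alternatives tried, with log2FC between 1.14 and 1.31.

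S100A11, the annexin-binding member, was at 1870, 1720 and 2460 CPM with EGFhigh against 1170, 818 and 1090 CPM in Ctrl (log2FC 0.97 ± 0.25, adjusted p = 0.013 in edgeR). These 3 libraries again lay above all 16 others at 72 h (720 to 1430 CPM). S100A4, the myosin-binding member, was at 110, 141 and 115 CPM against 58.3, 38.2 and 57.5 CPM (log2FC 1.25 ± 0.35, adjusted p = 0.0216). The groups did not overlap (nor did they in 22.9% of all genes), but 1 EGFlow library reached 119 CPM. Fibroblast markers summed to between 15.3 and 24 CPM with EGFhigh and between 10.8 and 16.4 CPM in Ctrl, mostly COL1A1, and their part in the S100A4 difference was not tested.

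S100A9, the calprotectin subunit, showed the largest fold of the 4, at 172, 84.5 and 47.7 CPM against 20.9, 29.6 and 9.41 CPM (log2FC 2.34 ± 0.60, adjusted p = 0.0109 in edgeR). All EGFhigh libraries were above Ctrl, with a wide spread among them. Its partner S100A8 stayed far lower, at 11.8, 5.35 and 4.85 CPM against 2.79, 1.14 and 0.204 CPM (log2FC 2.34 ± 1.26, adjusted p = 0.308), and was not called although the groups did not overlap. The myeloid markers summed to between 0.35 and 2.43 CPM in these EGFhigh libraries and to between 0 and 1.91 CPM in Ctrl. S100A7 was at 2.51 ± 2.18 CPM against 1.83 ± 0.897 CPM (mean ± SD, n = 3 each) and was not called.

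S100A10, S100A14, S100A2 and S100A6 did not pass the threshold. S100A10 was at 1400, 1180 and 1380 CPM against 927, 694 and 931 CPM, without overlap (log2FC 0.63 ± 0.21, adjusted p = 0.0645 in edgeR). S100A14 had a log2FC of 0.74 ± 0.27 (adjusted p = 0.0938) and S100A6 of 0.78 ± 0.37 (adjusted p = 0.229). S100A2 was at 267, 124 and 692 CPM against 173, 127 and 90.2 CPM (log2FC 1.47 ± 0.55, adjusted p = 0.106), so the groups overlapped and 1 library decided the mean. That library was EGFhigh replicate 4, a number that Ctrl lacks at 72 h, and without it the log2FC was 0.59. Over all Kyse30 conditions S100A2 had a median of 327 CPM in the 10 libraries numbered 4, and of 173, 134 and 116 CPM in those numbered 1, 2 and 3. EGFhigh in turn lacks number 2 at 72 h. Other members also differed by number, though the numbers do not hold the same conditions. Medians for numbers 4 and 2 were 3490 and 1900 CPM for S100A6, 539 and 264 CPM for S100A14 and 1450 and 1020 CPM for S100A11. S100A10 and S100A16 went the same way, and S100A4, S100A7, S100A8 and S100A9 the other. In numbers 1 and 3, S100A6 with EGFhigh was 0.776 and 1.41 times Ctrl.

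The calls of the other 3 members rested on single libraries. S100A4 lost its call without Ctrl replicate 2 (log2FC 1.08) or 3 (1.34) or EGFhigh replicate 3 (1.14). S100A9 lost it without EGFhigh replicate 1 (1.73) or Ctrl replicate 3 (2.02), and S100A11 without Ctrl replicate 2 (0.84) or EGFhigh replicate 4 (0.81). The number of members called then lay between 2 and 4, and S100A14 gained a call without EGFhigh replicate 1 (0.97) and S100A2 without EGFhigh replicate 3 (1.88). DESeq2 added S100A10 (0.64). Without a filter on low counts 7 members were called, with S100A2, S100A6 and S100A14 added.

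**Figure D2:**
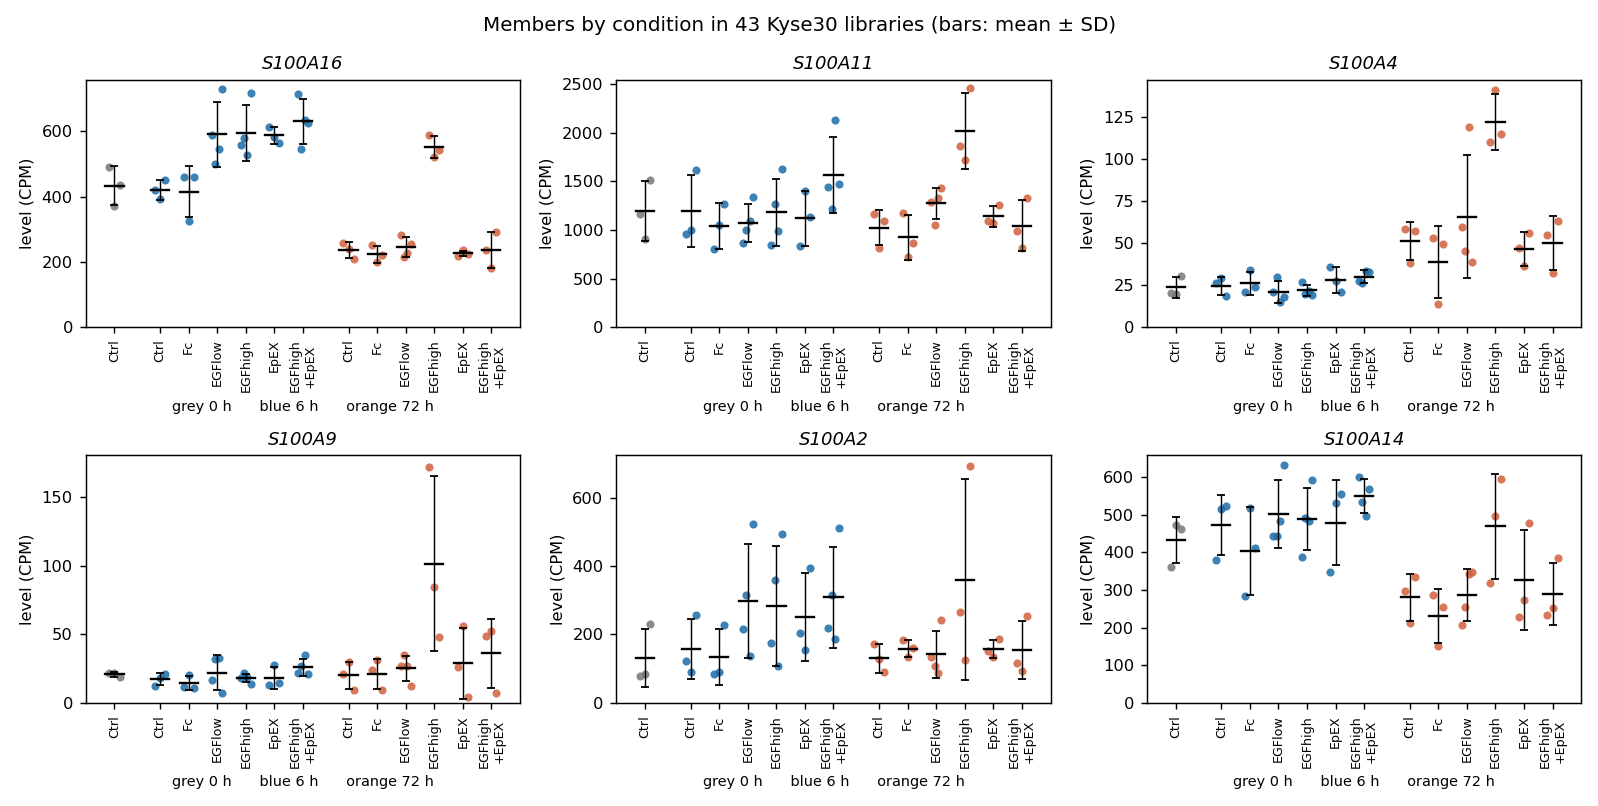
Level in CPM of 6 members in the 43 Kyse30 libraries, by condition, with 1 point per library and the mean ± SD of each condition (n = 3 or 4); grey is 0 h, blue 6 h and orange 72 h. At 72 h the S100A16 points of EGFhigh (523 to 590 CPM) stand above all others, and the highest S100A2 point belongs to EGFhigh replicate 4.

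With EpEX beside EGFhigh, 3 of these members were lower than with EGFhigh alone at 72 h (3.58% of genes called, 1.72% downward). EpEX carries Fc and the EGFhigh cells are not said to have received it, so Fc and EpEX cannot be told apart in this comparison. S100A16 fell to 236, 182 and 291 CPM (log2FC −1.22 ± 0.18 against EGFhigh, adjusted p = 2.75e-05 in edgeR), and the call held under each of the 11 alternatives. S100A4 fell to 54.9, 32 and 63.1 CPM (log2FC −1.28 ± 0.35, adjusted p = 0.0266) and S100A11 to 990, 814 and 1330 CPM (log2FC −0.95 ± 0.25, adjusted p = 0.0239). In all 3 the libraries of the 2 conditions did not overlap, as in 19.9% of all genes. S100A9 was at 48.8, 52.3 and 7 CPM (log2FC −1.50 ± 0.58, adjusted p = 0.157), which overlapped EGFhigh, and was not called. S100A4 lost its call without EGFhigh+EpEX replicate 1 (log2FC −1.36) or 2 (−1.05) or EGFhigh replicate 3 (−1.17), and S100A11 without EGFhigh+EpEX replicate 1 (−0.92) or 2 (−0.79) or EGFhigh replicate 4 (−0.78), and when only these groups were fitted. This comparison shares its EGFhigh libraries with the one against Ctrl. At 72 h EGFhigh+EpEX lacks number 4 and EGFhigh lacks number 2, so the library numbers are not balanced here either.

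Against Fc, EGFhigh+EpEX at 72 h gave no call in any member (0% of genes called, and 1 member with an unadjusted p under 0.05). S100A16 differed from Fc by a log2FC of 0.08 ± 0.18 there. EpEX alone gave none either (0% of genes called, 1 member with an unadjusted p under 0.05), nor did EGFlow against Ctrl (0% called, 0 members), where S100A16 had a log2FC of 0.05 ± 0.16. DESeq2 also called 0 members in these 3 comparisons.

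The 2 EGF doses differed in 2 members at 72 h (3.73% of genes called, 2.03% upward with the higher dose; libraries did not overlap in 12.4%). S100A16 was 2.26-fold higher with EGFhigh, where EGFlow libraries lay at 283, 214, 226 and 255 CPM (log2FC 1.18 ± 0.16, adjusted p = 9.12e-06 in edgeR), and kept its call under each of the 12 alternatives. S100A9 was at 26.6, 34.7, 26.5 and 12.3 CPM with EGFlow (log2FC 2.02 ± 0.53, adjusted p = 0.0205), and lost its call without EGFhigh replicate 1 (1.41) or EGFlow replicate 4 (1.79). Without EGFlow replicate 3 the count was 3, with S100A4 added. With the replicate number as a block it was 4, with S100A2 and S100A14 added.

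**Figure D3:**
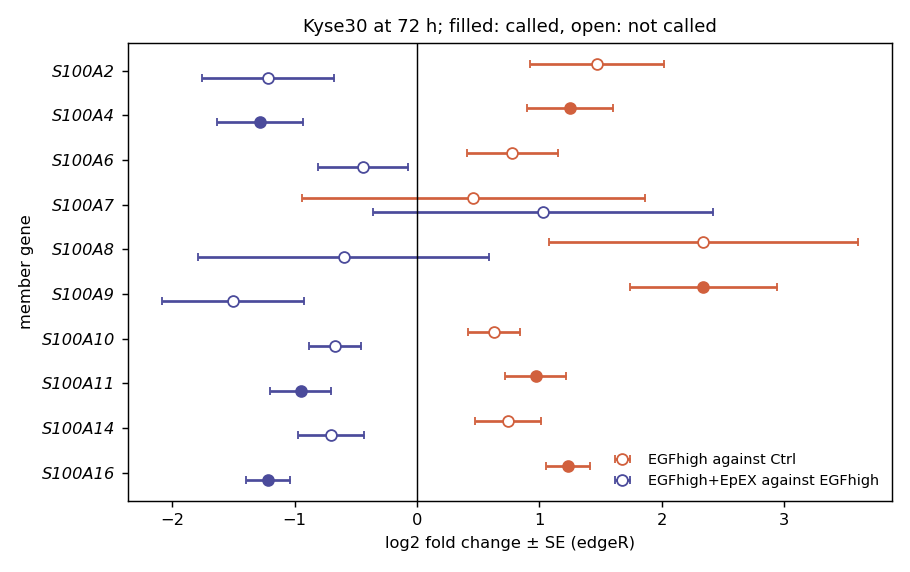
Log2 fold change ± SE (edgeR) of each member in Kyse30 at 72 h, for EGFhigh against Ctrl (orange) and EGFhigh+EpEX against EGFhigh (violet); filled points were called. All 10 orange points lie above 0, and S100A16 has the narrowest error, at 1.23 ± 0.18 and −1.22 ± 0.18.

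At 6 h in Kyse30, S100A16 rose with EGFhigh+EpEX against Fc, the 1 member called there (4.52% of genes called, 3.01% upward), at 716, 547, 635 and 627 CPM against 460, 326 and 461 CPM, without overlap (as in 15.1% of all genes; log2FC 0.60 ± 0.17, adjusted p = 0.0266 in edgeR). That call was lost without Fc replicate 1 (log2FC 0.68) or 3 (0.45) or EGFhigh+EpEX replicate 1 (0.57), and when only these 2 groups were fitted (0.60) or no filter on low counts was used (0.62). With the replicate number as a block 3 members were called, with S100A2 and S100A11 added. For EGFhigh (2.55% of genes called), EGFlow (1.5%) and EpEX (0.0261%) no member was called, with 1 member each at an unadjusted p under 0.05, and the S100A16 log2FC was 0.50 ± 0.17, 0.49 ± 0.17 and 0.50 ± 0.18. DESeq2 called S100A16 with EGFhigh, and the replicate block called it with EGFhigh and EGFlow. All 15 treated libraries at 6 h had 499 to 731 CPM of S100A16, and all 6 Ctrl and Fc libraries had 326 to 461 CPM. For this pooled set the share of all genes without overlap was not counted.

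S100A2, the basal epithelial member, had log2FC values between 0.85 and 1.2 in the 4 treatments at 6 h in Kyse30, none called. Within each library number it was higher in 3 of 3 treated libraries for each of the 4 treatments, by 1.17 to 2.62 times, while its level differed between numbers. Without the filter on low counts it was called in all 4. Among the others, S100A6, S100A10 and S100A14 had absolute log2FC values of at most 0.44, and S100A7 and S100A8 were near or under the floor. With EGFhigh+EpEX, S100A9 was at 26 ± 6.2 CPM against 14.4 ± 5.33 CPM with Fc (mean ± SD, n = 4 and 3). S100A11 was at 1560 ± 393 against 1040 ± 237 CPM and S100A4 at 30.1 ± 3.69 against 26.2 ± 6.86 CPM, none called. In that comparison 8 of 10 members had a log2FC above 0, with a median of 0.59, and 3 had an unadjusted p under 0.05 in edgeR. Fc did not differ from Ctrl in any member at 6 or 72 h (0% of genes called at both times, 0 members with an unadjusted p under 0.05; DESeq2 also called 0 members).

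S100A16 was also lower in Ctrl cells after 72 h than after 6 h. They had 259, 239 and 210 CPM at 72 h against 419, 392 and 451 CPM at 6 h (log2FC −0.83 ± 0.18, adjusted p = 0.00733 in edgeR), the 1 member called among the 1.55% of genes called (0.775% downward). These libraries did not overlap, as in 20.7% of all genes. The call was lost without Ctrl 72 h replicate 3 (log2FC −0.76). S100A4 was at 51.3 ± 11.4 CPM in Ctrl at 72 h (mean ± SD, n = 3), with a log2FC of 1.07 ± 0.35 against 6 h (adjusted p = 0.12), and was called with the replicate block, without the filter, and when only these groups were fitted. Whether the EGFhigh effect itself differed between 72 and 6 h was tested as an interaction (1.01% of genes called), and no member was called. The interaction was 1.43 ± 0.48 for S100A4, 2.29 ± 0.80 for S100A9, 0.98 ± 0.34 for S100A11 and 0.72 ± 0.24 for S100A16 on the log2 scale, with adjusted p between 0.143 and 0.169, and 5 members had an unadjusted p under 0.05.

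In FaDu cells at 6 h the same 3 members rose in each of 3 treatments: S100A2, S100A16 and S100A14, which are consecutive S100 genes. Calls were 3 of 10 with EGFlow (3.45% of 16022 genes called, 2.55% upward), 3 with EGFhigh (3.06%, 2.29% upward) and 3 with EpEX (3.50%, 2.45% upward). S100A2 was at 5520 and 4500 CPM with EGFlow and at 5110 and 4230 CPM with EGFhigh, against 1990 and 2050 CPM in Ctrl (log2FC 1.31 ± 0.16 and 1.21 ± 0.16, adjusted p = 7.76e-05 and 0.000229 in edgeR). With EpEX it was at 5960 and 5370 CPM, against 1970 and 2110 CPM with Fc (log2FC 1.47 ± 0.16, adjusted p = 2.59e-05). The single EGFhigh+EpEX library had 3930 CPM, so all 7 treated libraries lay above all 4 controls. With 2 libraries a group, 42.8%, 40.8% and 39.8% of all genes did not overlap in these 3 comparisons. For the 7 treated libraries against the 4 controls this share was not counted.

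S100A16 was at 647 and 612 CPM with EGFlow, 565 and 574 CPM with EGFhigh and 686 and 673 CPM with EpEX, against 294 to 366 CPM in the 4 controls (log2FC 0.94 ± 0.16, 0.80 ± 0.16 and 1.02 ± 0.16, adjusted p = 0.0018, 0.00809 and 0.00086 in edgeR). S100A14 was at 323 to 375 CPM in the 7 treated libraries and 199 to 264 CPM in the controls, with log2FC values of 0.72 ± 0.15, 0.68 ± 0.15 and 0.62 ± 0.15 (adjusted p = 0.0111, 0.0173 and 0.0284). No other member was called. S100A10 and S100A11 had log2FC values between 0.13 and 0.32, and S100A6, S100A7, S100A8, S100A9 and S100A4 between −0.88 and −0.12. The 2 EGF doses did not differ in any member (0% of genes called, 0 members with an unadjusted p under 0.05; DESeq2 also called 0 members), and S100A2 differed by a log2FC of −0.10 ± 0.16 between them. EGFlow and EGFhigh share their Ctrl libraries.

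The S100A14 call rested on single libraries. It was lost without any 1 of the libraries compared, except Fc replicate 4 in the EpEX comparison, at log2FC values of 0.65 (Ctrl replicate 3), 0.80 (Ctrl replicate 4), 0.72 (EGFlow replicate 3) and 0.72 (EGFlow replicate 4) for EGFlow. For EGFhigh they were 0.60 (Ctrl replicate 3), 0.76 (Ctrl replicate 4), 0.64 (EGFhigh replicate 3) and 0.70 (EGFhigh replicate 4), and for EpEX 0.49 (Fc replicate 3), 0.60 (EpEX replicate 3) and 0.64 (EpEX replicate 4). When only the groups compared were fitted, it was lost for EGFhigh (0.67) and EpEX (0.62). S100A16 lost its call without Ctrl replicate 3 for EGFlow (0.80) and EGFhigh (0.65) and without EGFhigh replicate 4 (0.79). Without EGFlow replicate 3, S100A4 was called too, but as lower. This rests on the 1 EGFlow library left, near the floor at 0.608 CPM against 6.5 and 5.33 CPM in Ctrl. S100A2 kept its call without each library in turn. Over all 41 FaDu libraries 0 members and 0 genes in all were called in these comparisons, and the S100A2 log2FC was 1.68, 1.15 and 0.13.

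**Figure D4:**
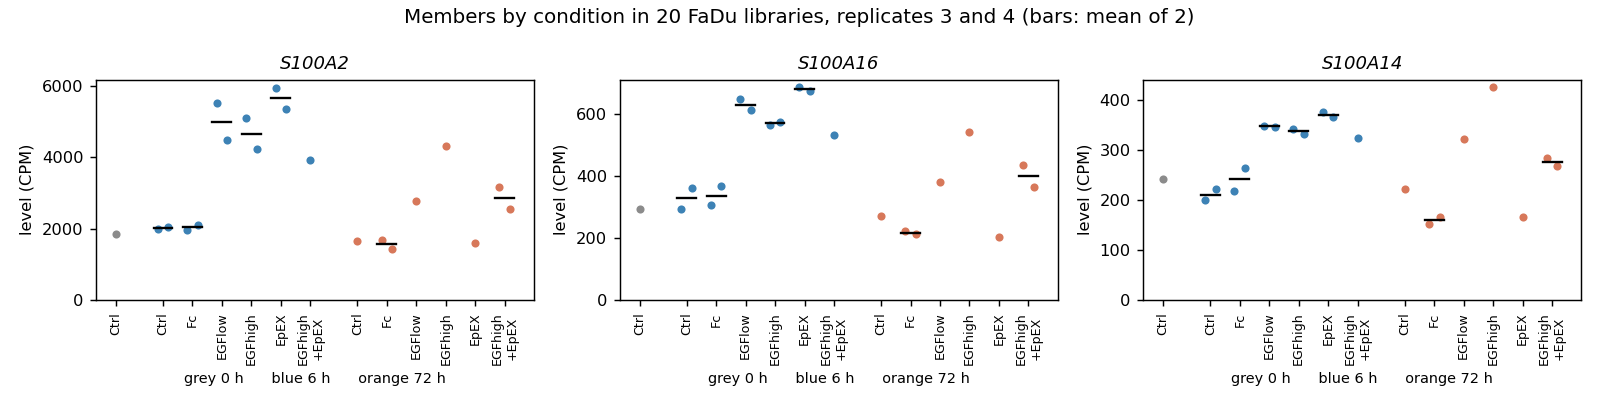
Level in CPM of S100A2, S100A16 and S100A14 in the 20 FaDu libraries numbered 3 or 4, by condition, with 1 point per library and the mean where there are 2; grey is 0 h, blue 6 h and orange 72 h. In all 3 genes the 7 treated libraries at 6 h lie above the 4 controls, and at 72 h the EpEX library lies among the controls or, for S100A16, just below them.

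At 72 h in FaDu the same 3 members rose with EGFhigh+EpEX against Fc, the only treatment with 2 libraries at that time (0.818% of genes called, 0.624% upward; libraries did not overlap in 41.1%). S100A2 was at 3160 and 2550 CPM against 1680 and 1440 CPM (log2FC 0.87 ± 0.16, adjusted p = 0.0123 in edgeR). S100A16 (log2FC 0.88 ± 0.16, adjusted p = 0.0123) and S100A14 (0.79 ± 0.15, adjusted p = 0.0169) were called as well. Leaving out any 1 of the 4 libraries ended all 3 calls, with S100A2 at 0.99 and 0.77 without Fc replicate 3 or 4 and at 0.72 and 1.03 without EGFhigh+EpEX replicate 3 or 4. The single libraries of the other conditions had 1640 CPM of S100A2 in Ctrl, 2790 CPM with EGFlow, 4330 CPM with EGFhigh and 1590 CPM with EpEX, which cannot be tested. S100A11 was highest with EGFhigh, at 1110 CPM in that 1 library against 712 CPM in Ctrl. S100A4 was lower with EGFhigh+EpEX, at 5.03 and 4.77 CPM against 11.5 and 12.7 CPM with Fc, and was not called. Its single libraries had 12.1 CPM in Ctrl, 3.61 CPM with EGFlow, 3.73 CPM with EGFhigh and 7.29 CPM with EpEX. Of the 10 members, 7 had a log2FC above 0 with EGFhigh+EpEX against Fc.

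Between 6 and 72 h of Fc, S100A14 and S100A16 fell in FaDu (log2FC −0.59 ± 0.15 and −0.63 ± 0.16, adjusted p = 0.0427 and 0.0379 in edgeR; 2.88% of genes called, 1.91% downward, and 48.5% without overlap). S100A16 went from 307 and 366 CPM to 221 and 213 CPM. Without Fc 72 h replicate 3 (S100A16 −0.66, S100A14 −0.53) or 4 (−0.61 and −0.66) or Fc 6 h replicate 4 (−0.49 and −0.44) neither was called, without Fc 6 h replicate 3 S100A16 was not (−0.75), and with only these groups fitted neither was (−0.64 and −0.60). Fc did not differ from Ctrl at 6 h in any member (0% of genes called, 0 members with an unadjusted p under 0.05; DESeq2 also called 0 members).

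Whether the EGFhigh response at 6 h differed between the lines was tested over both lines (0.0611% of 19634 genes called), and no member was called (0 members with an unadjusted p under 0.05; DESeq2 also called 0 members). The difference, Kyse30 minus FaDu, was −0.32 ± 0.74 for S100A2, −0.26 ± 0.27 for S100A16 and −0.60 ± 0.38 for S100A14 on the log2 scale. With errors of this size the test does not show that the lines respond alike.

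Of the 10 other genes of the family, 2 passed the filter in Kyse30 and both rose with EGFhigh at 72 h. S100P, first known from placenta, went from 23.4 ± 12.6 to 292 ± 137 CPM (mean ± SD, n = 3 each; log2FC 3.63 ± 0.65, adjusted p = 0.000242 in edgeR) and S100A13, which takes part in the release of FGF1, from 102 ± 11 to 204 ± 34.3 CPM (log2FC 1.01 ± 0.26, adjusted p = 0.0133). Both fell with EGFhigh+EpEX against EGFhigh, to 48.8 ± 30.7 and 87 ± 20.6 CPM (log2FC −2.58 ± 0.62 and −1.23 ± 0.27, adjusted p = 0.00939 and 0.00378). In FaDu 4 of these genes were tested at 6 h and none was called with EGFhigh or EpEX.

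Among 10 annexins tested, 1 rose with EGFhigh at 72 h in Kyse30. It was ANXA2, the partner of S100A10, at 3210 ± 1820 against 1430 ± 100 CPM (log2FC 1.17 ± 0.25, adjusted p = 0.00181 in edgeR), and it fell with EGFhigh+EpEX (log2FC −0.96 ± 0.24, adjusted p = 0.0169). In FaDu ANXA2 rose with EGFlow, EGFhigh and EpEX at 6 h (log2FC 0.81 ± 0.15, 0.70 ± 0.15 and 0.67 ± 0.15, adjusted p = 0.00505, 0.0156 and 0.0188), in 2, 2 and 1 annexins called of 9 tested, the other being ANXA5, which is named after its values were seen. S100A10 itself passed in none of these comparisons.

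Of 9 intracellular partners tested, 3 rose with EGFhigh at 72 h in Kyse30, among them the calpain CAPN2 (137 ± 16.5 to 376 ± 19.2 CPM, adjusted p = 1.16e-05 in edgeR) and AHNAK2 (104 ± 8.94 to 245 ± 37.8 CPM, adjusted p = 0.0268). None fell, and the median log2FC of the 9 was 0.43. In FaDu CAPN2 rose with EpEX at 6 h (log2FC 0.97 ± 0.23, adjusted p = 0.0238), together with MYH9, the myosin bound by S100A4, which is named after its values were seen (0.88 ± 0.17, adjusted p = 0.00498). These were the 2 called with EpEX of 8 partners tested there, and 3 each rose with EGFlow and EGFhigh at 6 h. Of 5 receptors tested and of 6 C/EBP and STAT factors none was called in Kyse30 at 72 h, with median log2FC values of 0.12 and −0.11.

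Of the 28 other genes of the epidermal differentiation complex listed, 12 passed the filter in Kyse30 and 4 rose with EGFhigh at 72 h. All 4 encode small proline-rich proteins of the cornified envelope. SPRR1B went from 9.62 ± 0.982 to 536 ± 116 CPM (log2FC 5.81 ± 0.50, adjusted p = 1.6e-10 in edgeR), SPRR2A from 1.42 ± 0.902 to 69.4 ± 53.9 CPM, SPRR2E from 0.442 ± 0.423 to 20.7 ± 8.24 CPM and SPRR3 from 60.1 ± 8.46 to 336 ± 191 CPM. None fell, and the median log2FC of the 12 was 2.92, against −0.03 over all genes. The 4 genes fell with EGFhigh+EpEX against EGFhigh. In FaDu at 6 h none of 13 tested was called with EGFhigh or EpEX. Of the 7 epithelial markers, SFN rose with EGFhigh at 72 h in Kyse30 and EGFR fell (log2FC 1.67 ± 0.35 and −1.03 ± 0.18). Of the myeloid and fibroblast markers 2 each passed the filter, and none was called.

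Over the 13 Kyse30 conditions the members with the widest range of mean log2 CPM were S100A8 (3.98 between the lowest and highest condition), S100A7 (3.56), S100A9 (2.65) and S100A4 (2.57). S100A10 had the narrowest (0.73). The mean level ran from 0.188 to 7.33 CPM for S100A8 and from 0 to 5.17 CPM for S100A7. The low ends lie under the floor, so the size of these ranges depends on the prior count of 2 used for log2 CPM. EGFhigh at 72 h was the highest condition for S100A8, S100A9, S100A4, S100A2, S100A6, S100A11 and S100A10. S100A16 and S100A14 were highest with EGFhigh+EpEX at 6 h, and S100A7 with EGFhigh+EpEX at 72 h. In FaDu the widest range was that of S100A4 (2.42, between levels of 2.7 and 12.1 CPM), followed by S100A2 (1.87) and S100A16 (1.75). As a description over the 13 conditions, with libraries of unequal depth behind them, the genes outside the family whose centred profile lay nearest to S100A9 were CLDN3, ITGB4 and TMC6 (root mean square difference of 0.23, 0.24 and 0.25 on the log2 scale, against 0.63 for a flat profile). Nearest to S100A8, whose profile rests in part on levels under the floor, were MUC16, OASL and MSLN (0.46, 0.55 and 0.57 against 1.18).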

How the data were processed

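Libraries were made with a 3′ mRNA kit (QuantSeq FWD). The authors deposited whole-number read counts per gene and library, and the submitters' processing notes name STAR, HTSeq and GRCh38 (hg38). Versions, the annotation, the strand setting and any use of molecular identifiers are not given in the sources used here. Gene symbols came from GENCODE 29. Genes were tested with edgeR 4.0.16 (R 4.3.3) by the quasi-likelihood F test after filterByExpr (minimum count 10, minimum total 15) and TMM scaling. There was 1 fit of the 43 Kyse30 libraries, 1 of the 20 FaDu libraries and 1 of all 63, with Benjamini-Hochberg adjustment over all genes tested. Genes were called at an adjusted p up to 0.05 where log2FC lay beyond 0.5 in either direction. The fits have 30 and 7 residual degrees of freedom for Kyse30 and FaDu. CPM were scaled by TMM, and values ± SE are log2FC from edgeR. The SE was not given by the test but taken as the absolute log2FC divided by the square root of its F statistic.

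Alternatives were RLE scaling, DESeq2 1.42.0, no filter on low counts, the replicate number as a block, only the groups compared, all 41 FaDu libraries, leaving out each library and, for levels, total counts without TMM (no level moved). All 10 members are described. From each gene list, the genes called in Kyse30 with EGFhigh at 72 h are named, at most 4 per list with the largest log2FC, and for the 3 members of widest range the 3 genes of nearest profile. Of these, 1 listed partner gene and the genes nearest to S100A7 are not reported here. The members and lists were chosen with earlier results of these data known. The scripts were tested on simulated data.

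Over all genes, libraries of the same number deviated together only weakly, and the main fits did not pair them by number. The mean correlation was 0.0633 in Kyse30 (lowest −0.131), against −0.0216 between libraries of other numbers. In FaDu it was 0.0713 (lowest −0.0362), against −0.0713. These means do not speak for single members, and the S100A2 level did differ between numbers in Kyse30. The replicate number as a block was therefore kept as an alternative.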

Additional observations from a re-analysis of the deposited data

Results flagged for a closer look

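In 40 conditions by gene with 4 libraries each, the highest or lowest library was compared with the rest of its group by Dixon's ratio. Chance exceeds this ratio in about 1 of 20 groups. A library stood apart in 2 groups, which is no more than that rate gives. S100A8 in Kyse30 with EGFhigh at 6 h was at 7.82 CPM in replicate 1, whereas the other 3 libraries lay between 0.344 and 0.975 CPM. S100A7 in Kyse30 with EGFhigh+EpEX at 6 h was at 0.214 CPM in 1 library and at 0 in the other 3, which is below the floor of 3 counts.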

How the results depend on the processing

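Of the counts of members called, 248 stayed within 1.5 times of the value reported and 46 moved. The 248 include counts of 0 that stayed 0, so they overstate how steady the comparisons with calls were. Of the log2FC values, 320 kept direction and side of the threshold, 81 lost the call, 6 gained it and 3 reversed. Without the filter on low counts, 1 member was called with EGFlow, EGFhigh and EpEX at 6 h in Kyse30, 7 with EGFhigh at 72 h, 5 for EGFhigh+EpEX against EGFhigh, 6 between doses at 72 h, 3 for Ctrl 72 against 6 h and 2 for the change of the EGFhigh effect. DESeq2 called 1 with EGFhigh at 6 h. With only the groups compared, 0 were called for EGFhigh+EpEX against Fc at 6 h, 3 for Ctrl 72 against 6 h, 2 for the change of the EGFhigh effect and 0 for Fc 72 against 6 h in FaDu, where RLE scaling called 1. With the replicate block, 1 was called with EGFlow and 1 with EGFhigh at 6 h, 3 with EGFhigh+EpEX against Fc, 4 between doses, 2 for Ctrl 72 against 6 h and 1 for the change of the EGFhigh effect. With all 41 FaDu libraries, 0 were called in the FaDu comparisons and 4 between the lines.

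Leaving out 1 library gave 2 to 4 calls for EGFhigh at 72 h, 1 to 3 for EGFhigh+EpEX against EGFhigh, 1 to 3 between doses, 0 to 1 for EGFhigh+EpEX against Fc at 6 h, 0 to 1 for Ctrl 72 against 6 h, and 7 to 8 between the lines. In FaDu it gave 1 to 3 with EGFlow, 1 to 2 with EGFhigh, 2 to 3 with EpEX, 0 with EGFhigh+EpEX at 72 h and 0 to 1 for Fc 72 against 6 h. S100A7 with EGFhigh at 72 h ranged from −0.04 without EGFhigh replicate 1, a reversal, to 1.05 on leaving out 1 library. Also reversed were, with all 41 FaDu libraries, S100A14 with EpEX at 6 h (−0.03) and S100A4 between the lines (−2.91). The cause was not tested. In the fit of both lines the EGFhigh libraries at 6 h were not left out in turn, and no block was fitted between the lines, whose numbers are unrelated.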
